A study of Mus musculus with 9 samples.

Results

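The genes described here are 10 members of the Robo, Slit and netrin guidance system, picked by gene symbol from the 55487 genes with deposited values: the receptors Robo1, Robo2, Robo3 and Robo4, the ligands Slit1, Slit2 and Slit3, the Robo3 ligand Nell2, the netrin receptor Dcc and the netrin ligand Ntn1. Robo3 was selected on its rise in Tet tcKO retina, so its values in that genotype are a description and carry no test, and the question put to the other 9 members was whether they shared the rise. All 10 were expressed highly enough to be tested. RNA came from whole retinas of C57 BL/6J mice at postnatal day 21 (P21), with 3 genotypes, 3 libraries per genotype and the pooled retinas of 2 animals in each library. Tet tcKO retinas were homozygous for floxed alleles of Tet1, Tet2 and Tet3, the enzymes that oxidise 5-methylcytosine, and carried a Cre-GFP transgene that is active in retinal progenitor cells. tHet retinas were heterozygous for the same floxed alleles and carried the same transgene. Cre- retinas lacked the transgene and their labels give the genotype as WT. The transgene is mosaic, and both Cre+ genotypes came from crosses between Cre+ animals to limit this, whereas Cre- mice were bred from Cre- parents, so genotype, transgene and breeding line cannot be told apart in comparisons with Cre-. The p-values below measure the spread between these pools.

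Robo receptors are transmembrane proteins of growing axons that bind secreted Slits, and Slit binding turns the growth cone away. Robo3 is the divergent member of the family: in mammals it has lost strong Slit binding, it binds NELL2, and in the hindbrain and spinal cord it lets commissural axons reach and cross the midline. Netrin-1 acts through DCC to attract axons, and RGC axons use it to find the optic disc. In the developing eye Slit1, Slit2 and Robo2 keep RGC axons on their path out of the retina and across the optic chiasm, while Robo4 is known mainly from blood vessel endothelium.

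Reads counted on genes numbered 9627927 to 21108256 per library, so that 1 read was worth 0.0474 to 0.104 CPM (counts scaled to the same total in every library) and 3 reads, the level taken as detectable, 0.142 to 0.312 CPM. These limits cover counting error only. A ribosomal RNA gene, CT010467.1, took 28.7% of the reads of Tet tcKO replicate 3 and between 0.0409% and 3.72% elsewhere, which lowered the CPM of every other gene in that library. A gene was called when its log2 fold change, computed by limma on log2(CPM + 0.5), was at least 1 in either direction with a Benjamini-Hochberg adjusted p under 0.01 over all 21330 tested genes. Of all tested genes, 3.60% were called in Tet tcKO versus Cre- and 3.00% in Tet tcKO versus tHet, and 56.5% and 46.4% of these calls were higher in Tet tcKO. With CT010467.1 left out of the library totals, these shares of higher calls were 73.3% and 66.4%. Summed over the whole gene, Tet3 was at 235 ± 29.2 CPM (SD, n = 3) for Cre-, 237 ± 71.5 for tHet and 120 ± 28.2 for Tet tcKO, while the log2 fold changes of Tet1 and Tet2 in Tet tcKO versus Cre- were 0.22 and 0.25. The floxed exons are only a part of each Tet gene, so these sums do not check the deletion. Rod markers summed to 12448 to 14276 CPM in Cre- and 2648 to 5235 CPM in Tet tcKO, and cone markers to 398 to 518 and 1037 to 1549 CPM. In bulk retina fewer cells of a type and less RNA per cell cannot be told apart, and this holds for every value below.

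Robo3 was low in control retina and, per kilobase, at a level that overlapped that of Robo2 in Tet tcKO retina. Its level was 1.24, 1.40 and 2.70 CPM in Cre- replicates 1 to 3, and 1.51, 2.18 and 2.46 CPM in tHet replicates 1 to 3. In Tet tcKO replicates 1 to 3 it was 113, 136 and 104 CPM, the last of which was 146 CPM with CT010467.1 left out of the total. The lowest Tet tcKO library thus lay far above the highest control library, and Cre- and tHet overlapped. In reads, 21 to 52 per library were counted on Robo3 in both control genotypes and 1730 to 2069 in Tet tcKO. The ratio of mean CPM was 66.2 against Cre- and 57.4 against tHet, and the log2 fold changes, which the added 0.5 CPM pulls down for a gene this low in the controls, were 5.74 ± 0.30 (SE) and 5.54 ± 0.30. Both comparisons share the Tet tcKO libraries and are not independent of each other. In tHet versus Cre-, which played no part in the choice of Robo3, its log2 fold change was 0.20 ± 0.30 with an adjusted p of 0.9998 (limma, n = 3 per genotype).

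Robo3 lies on chromosome 9 (GRCm38, bases 37415669 to 37433246, minus strand), and Robo4 lies tail to tail with it on the plus strand (bases 37401897 to 37415115), with 554 bases between their annotated ends. The sequences upstream of both are shown because these neighbours are the Robo genes with the highest ratios in Tet tcKO, and because the deleted enzymes act at cytosines that precede guanines (CpG). They are the reference stretches, credited to RefSeq on GRCm38.p6, that end before the annotated start of each gene, read 5′ to 3′ on the strand of the gene, with every CpG in capitals.
Robo3 (chr9:37433247-37433425, minus strand): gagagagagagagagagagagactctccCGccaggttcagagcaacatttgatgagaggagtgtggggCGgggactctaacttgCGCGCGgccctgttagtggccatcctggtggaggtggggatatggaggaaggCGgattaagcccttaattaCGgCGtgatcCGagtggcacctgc
Robo4 (chr9:37401722-37401896, plus strand): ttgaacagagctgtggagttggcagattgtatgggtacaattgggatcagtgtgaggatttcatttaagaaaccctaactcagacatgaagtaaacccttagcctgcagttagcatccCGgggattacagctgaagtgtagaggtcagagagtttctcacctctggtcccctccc
The Robo3 stretch holds 9 CpGs in 179 bases and the Robo4 stretch 1 in 175 bases. In the whole promoter windows of RefSeq, which run from 250 bases before to 50 bases after a start, Robo3 had 17 CpGs, and 31.4% of all 32851 windows held at least as many. Robo4 had 2 CpGs in its window, a number that 85.9% of windows reached. Windows were given for 6 of the 10 members. Slit3 had 41 CpGs (3.46% of windows held as many), Slit2 had 30 (11.7%), Robo1 had 15 (34.6%), and the 3 windows of Robo2 had 17, 5 and 9, against a median of 7 over all windows. The letters TAATCC, the core that the photoreceptor homeobox factor CRX is known to bind, or their reverse complement occurred 1 time in each of the Robo3 and Robo4 windows, where the Robo3 match shares a base with a CpG, in no other window of a member, and in 7.06% of all windows. These are counts of letters and say nothing about methylation or binding in these retinas.

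**Figure D1:**
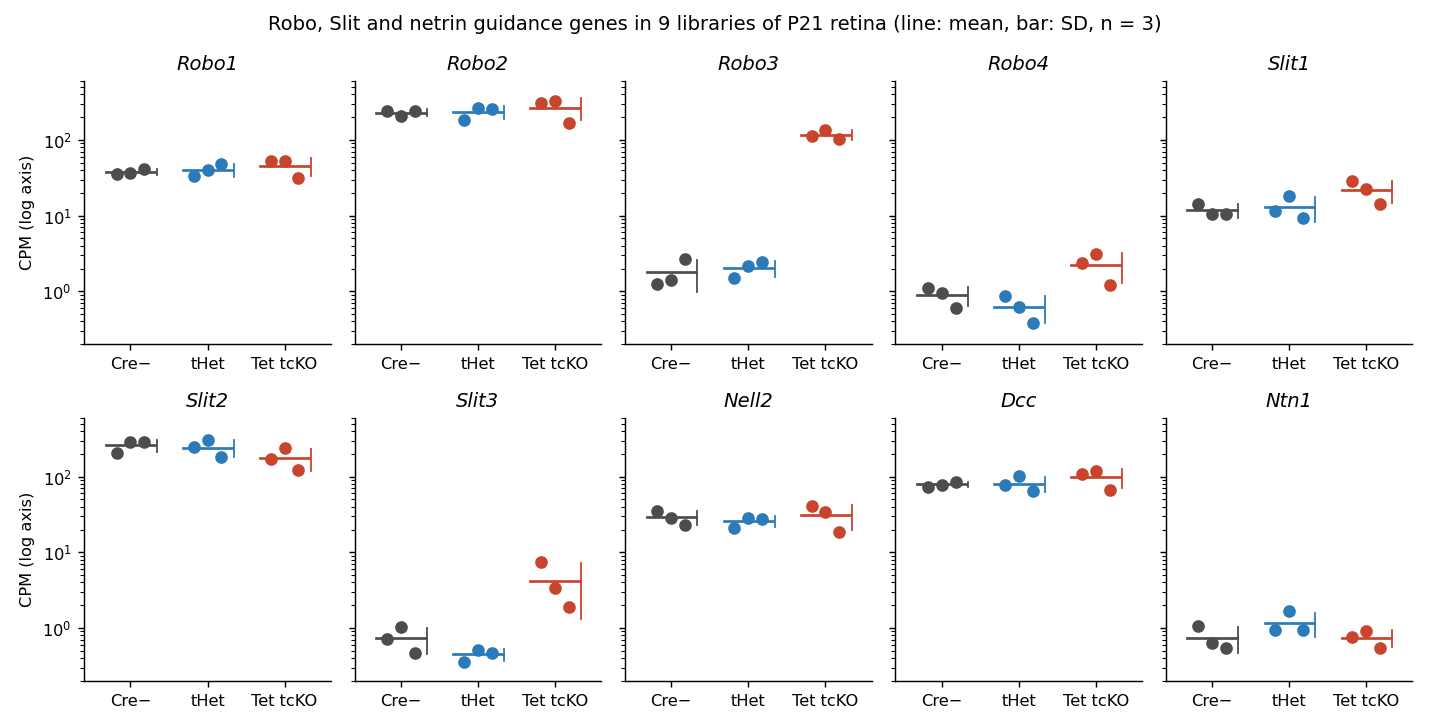
Level of each of the 10 genes in every library, in CPM on a log axis, by genotype (points: libraries 1 to 3 from left to right, horizontal line: mean, vertical bar: SD, n = 3). Robo3 went from 1.24 to 2.70 CPM in the control libraries to 104 to 136 CPM in Tet tcKO, and of the other panels only Slit3 and Robo4 have every Tet tcKO point above every control point.

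Among the 9 relatives of Robo3 most leaned higher in Tet tcKO, but few differences were large enough to be called. Of the 9, 8 had a positive log2 fold change against Cre- and 7 against tHet, where 50.1% and 44.3% of all tested genes did. Among the 8, Nell2 and Ntn1 were near 0, at 0.04 and 0.01, and both signs turned when some single libraries were left out. The medians of the relatives were 0.24 and 0.20, against 0.00 and −0.06 over all tested genes. In Tet tcKO versus Cre- 1 of 9 was called, Slit3, against the 3.60% of all tested genes called in either direction and the 2.03% called higher. In Tet tcKO versus tHet Slit3 was again the 1 relative called, against 3.00% and 1.39%. At an unadjusted p under 0.05 (limma), 4 relatives passed against Cre-, with Robo4, Slit1 and Slit3 higher and Slit2 lower. Against tHet 3 passed, Robo4, Slit1 and Slit3, all higher. Of all tested genes 16.1% and 17.5% passed in these comparisons, in either direction. In tHet versus Cre- 0 of 9 relatives were called and 0 passed an unadjusted p under 0.05, where 0.0422% of all tested genes were called. By edgeR and by DESeq2 0 relatives were called in that comparison too. Judged by overlap alone, every Tet tcKO library lay above every Cre- library for 3 relatives, Slit1, Slit3 and Robo4, against 10.0% of all tested genes. It lay above all 6 control libraries for Slit3 and Robo4, against 5.32% of all tested genes, and below all 6 for none of the relatives, against 4.82%. With CT010467.1 left out of the totals, every Tet tcKO library was also above every Cre- library for Robo1 and Dcc, where 23.3% of all tested genes were so ordered under that scaling. It was above all 6 control libraries for Slit1 too, against 13.8% of all tested genes.

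**Figure D2:**
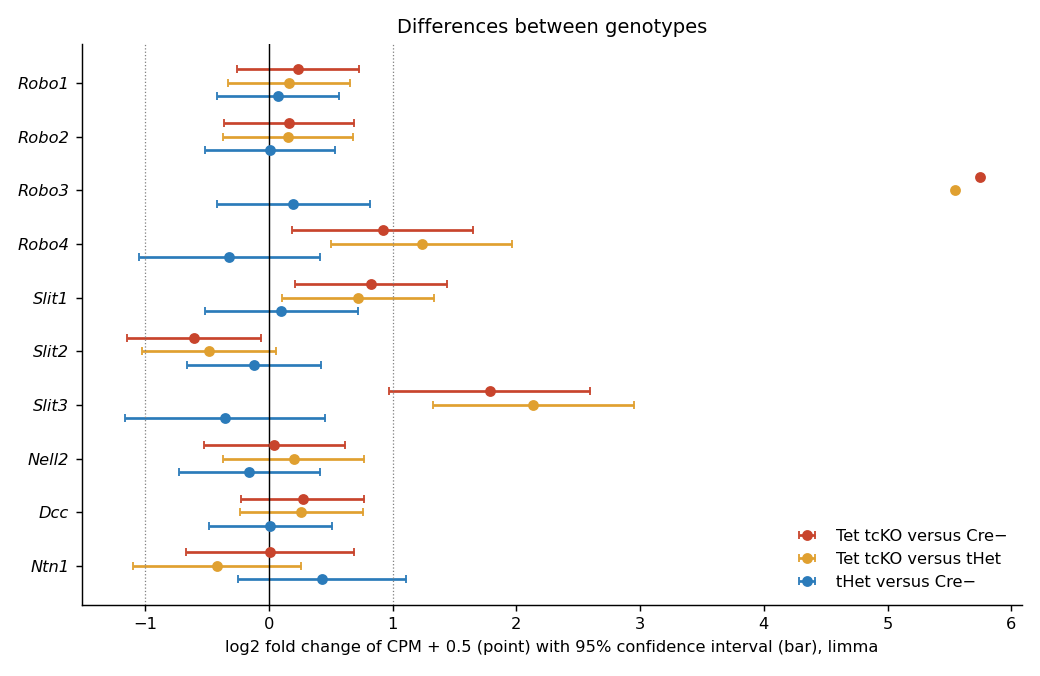
Difference between genotypes for each gene, as the log2 fold change of CPM + 0.5 (point) with its 95% confidence interval from limma (bar); dotted lines mark a log2 fold change of 1 in each direction. Robo3 is drawn without intervals in both Tet tcKO comparisons because it was selected on them, at 5.74 and 5.54, and Slit3 follows at 1.79 and 2.14.

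Robo1 and Robo2, the main Slit receptors of neurons, were not called in either Tet tcKO comparison. Robo1 was at 35.1, 36.7 and 41.6 CPM in Cre-, 33.2, 39.5 and 47.8 CPM in tHet, and 52.6, 53.4 and 31.6 CPM in Tet tcKO. Its Tet tcKO libraries spanned both controls, with replicates 1 and 2 above them and replicate 3 below. For Robo1 the log2 fold change was 0.24 against Cre- (95% confidence interval −0.26 to 0.73) and 0.17 against tHet (−0.33 to 0.66), with adjusted p of 0.78 and 0.81. Robo2, the most abundant Robo in control retina, was at 244, 205 and 242 CPM in Cre-, 184, 265 and 253 CPM in tHet, and 307, 327 and 170 CPM in Tet tcKO. Again Tet tcKO replicate 3, the library rich in ribosomal RNA, was the lowest of all 9. Robo2 had a log2 fold change of 0.16 against Cre- (−0.36 to 0.69) and 0.16 against tHet (−0.37 to 0.68), with adjusted p of 0.89 and 0.84. With CT010467.1 left out of the totals, Tet tcKO replicate 3 stood at 44.3 CPM for Robo1 and 238 CPM for Robo2, within the range of the controls, and the log2 fold changes against Cre- were 0.40 and 0.33. Without Tet tcKO replicate 3 the log2 fold changes against Cre- were 0.49 for Robo1 and 0.46 for Robo2. Against tHet they were then 0.41 and 0.45. Neither gene was called under any of the 20 alternatives run, though the sign for Robo2 turned without Tet tcKO replicate 2, to −0.01 against Cre- and −0.02 against tHet, and without tHet replicate 1, to −0.01 against tHet.

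Robo4, the endothelial member and the neighbour of Robo3, was low in every library. It was at 1.12, 0.95 and 0.61 CPM in Cre-, 0.86, 0.62 and 0.38 CPM in tHet, and 2.38, 3.10 and 1.20 CPM in Tet tcKO. The lowest Tet tcKO library was just above the highest control library. These values rest on 6 to 19 reads per control library and 20 to 47 reads per Tet tcKO library. The log2 fold change was 0.92 ± 0.35 (SE) against Cre- and 1.24 ± 0.35 against tHet, and the adjusted p of 0.15 and 0.040 (limma) did not pass 0.01. DESeq2 on recovered reads and the fit with a replicate block did call Robo4 against tHet, with adjusted p of 0.0051 and 0.0088 over a range of 0.0051 to 0.17 for all alternatives. Most markers of vascular endothelium also leaned higher. The 7 markers summed to 143 to 180 CPM in Cre-, 117 to 143 CPM in tHet and 181 to 271 CPM in Tet tcKO, and none was at 0. Of the 7, 0 were called, where 3.60% and 3.00% of all tested genes were. A positive log2 fold change was seen for 6 of 7 against each control, and the lowest values were −0.31 and −0.40. Esam, an endothelial adhesion gene outside this list, went the other way, at −0.27 against Cre- and −0.37 against tHet. The annotated end of Robo3 lies 554 bases from that of Robo4 on the other strand, and the strand setting of the counting is not given in the sources used here. The part of either in the Robo4 values was not tested.

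Per kilobase of exon, which allows genes of different length to be compared, Robo2 was most of the summed level of the other Robo genes in all 3 genotypes. Robo2 accounted for 83.4 to 86.0% of the summed level of Robo1, Robo2 and Robo4 in Cre- libraries, 83.3 to 86.2% in tHet and 82.4 to 83.5% in Tet tcKO. Robo1 made up 12.7 to 15.4%, 13.2 to 16.2% and 14.0 to 15.7% of that sum, and the low Robo4 0.68 to 1.26%, 0.40 to 1.25% and 1.87 to 2.53%. Shares are taken within a library and do not depend on how libraries are scaled. With Robo3 in the sum its share was 1.07 to 2.28% in Cre-, 1.67 to 1.97% in tHet and 43.2 to 55.6% in Tet tcKO, a difference that follows from the choice of Robo3 on its rise and describes its size beside the other Robo genes. The summed level of all 4 Robo genes was 14.7 to 17.3 CPM per kb over Cre- libraries, 13.2 to 18.4 over tHet libraries and 27.4 to 43.0 over Tet tcKO libraries, and without Robo3 it was 14.5 to 16.9, 13.0 to 18.1 and 12.1 to 23.1. In the order of levels per kilobase, Robo2 came first in Cre-, at 13.6 ± 1.31 CPM per kb, followed by Slit2 at 10.2 ± 1.84, with no overlap between their libraries. Nell2 and Dcc followed at 6.21 ± 1.25 and 5.98 ± 0.46 and could not be separated, nor could Robo1 and Slit1 at 2.29 ± 0.20 and 1.98 ± 0.39. Robo3, Robo4, Slit3 and Ntn1 came last, between 0.26 and 0.12 CPM per kb, each overlapping its neighbour in the order. In Tet tcKO Robo3 came first at 17.2 ± 2.43 CPM per kb and overlapped Robo2 at 15.8 ± 5.03.

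**Figure D3:**
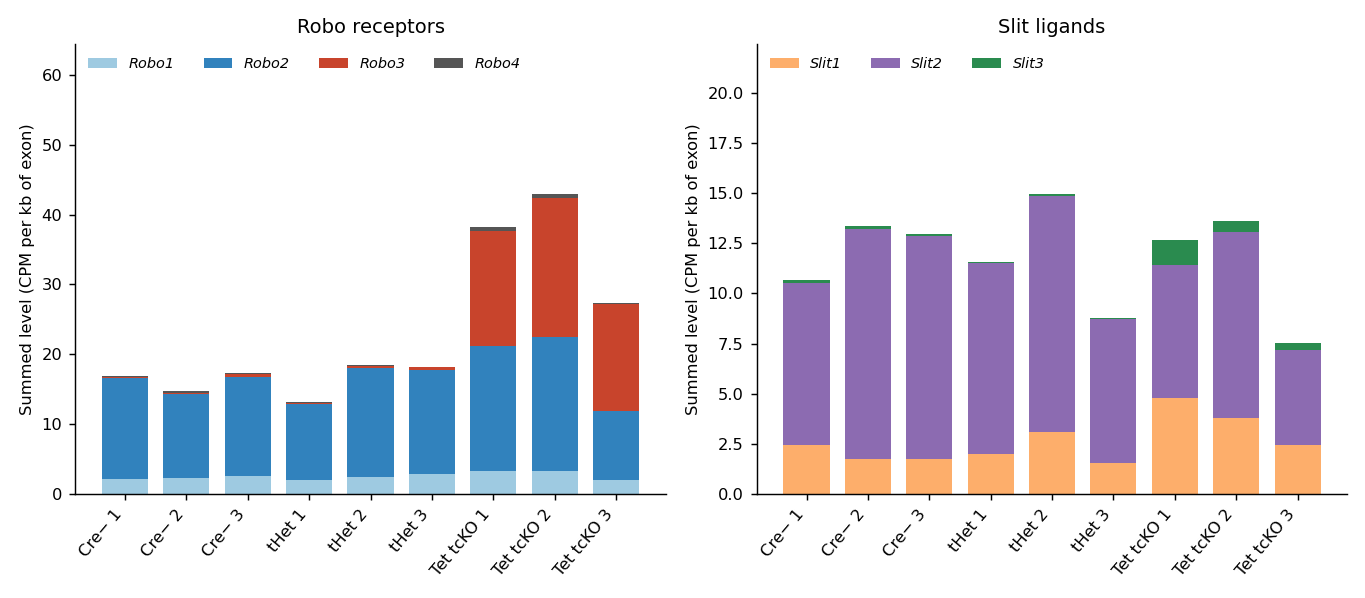
Level of each Robo receptor (left) and each Slit (right) per library, in CPM per kilobase of exon, stacked to the family sum, with axes from 0. The segment of Robo3, the gene selected on its rise, makes up 43.2 to 55.6% of the Robo column in Tet tcKO libraries and at most 2.28% elsewhere, while the Slit columns of the 3 genotypes overlap in height.

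Slit3, a secreted Slit that binds Robo receptors, was the only relative called in the main fit. It was at 0.71, 1.02 and 0.47 CPM in Cre-, 0.36, 0.52 and 0.47 CPM in tHet, and 7.48, 3.36 and 1.87 CPM in Tet tcKO. All Tet tcKO libraries were above all control libraries, and relative to their mean they differed among themselves more than those of any other member. Counted reads were 5 to 16 in the control libraries and 31 to 126 in Tet tcKO. The log2 fold change of Slit3 was 1.79 ± 0.39 (SE) against Cre- with an adjusted p of 0.0058, and 2.14 ± 0.39 against tHet with an adjusted p of 0.0014 (limma, higher in 3 of 3 libraries). The call depended on single libraries. Without Tet tcKO replicate 1, the highest library, the log2 fold change was 1.32 against Cre- (adjusted p 0.060) and 1.67 against tHet (adjusted p 0.017). Against Cre- the call was also lost without Tet tcKO replicate 2 (adjusted p 0.0104) and without Cre- replicate 3 (adjusted p 0.042). DESeq2 and edgeR on recovered reads both called it, and 15 of 20 alternatives called it against Cre- and 18 of 20 against tHet. Even in Tet tcKO the level of Slit3 was 0.70 ± 0.48 CPM per kb, far under that of Slit2.

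Slit1 and Slit2, the Slits known from the RGC pathway, leaned in opposite directions and neither was called. Slit1 was at 14.4, 10.4 and 10.4 CPM in Cre-, 11.6, 18.2 and 9.19 CPM in tHet, and 28.3, 22.4 and 14.5 CPM in Tet tcKO. Its Tet tcKO libraries all lay above Cre-, by the narrowest of margins for replicate 3, and overlapped tHet. For Slit1 the log2 fold change was 0.83 against Cre- (95% confidence interval 0.21 to 1.44) and 0.72 against tHet (0.11 to 1.34), with adjusted p of 0.12 and 0.18. Slit2 was at 206, 291 and 283 CPM in Cre-, 243, 300 and 182 CPM in tHet, and 169, 236 and 121 CPM in Tet tcKO. The ranges of the 3 genotypes overlapped. For Slit2 it was −0.60 against Cre- (−1.14 to −0.06) and −0.49 against tHet (−1.03 to 0.06), with adjusted p of 0.23 and 0.36. Neither Slit was called under any of the 20 alternatives, but their adjusted p varied widely. Against Cre- it ran from 0.0228 (limma without CT010467.1 in the totals) to 0.475 for Slit1. For Slit2 it ran from 0.0103 (DESeq2) to 0.572. Against tHet the ranges were 0.0341 to 0.65 for Slit1 and 0.117 to 0.73 for Slit2. As shares of the summed Slit level per kilobase, Slit1 went from 13.1 to 22.9% in Cre- and 16.9 to 20.5% in tHet to 27.8 to 37.7% in Tet tcKO, and Slit2 from 76.0 to 85.8% and 78.9 to 82.6% to 52.5 to 68.2%. Within a library, then, the share of Slit2 was lower in every Tet tcKO library than in every control library, which its CPM was not. The summed Slit level was 12.3 ± 1.46 CPM per kb for Cre-, 11.8 ± 3.09 for tHet and 11.3 ± 3.29 for Tet tcKO.

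Nell2, the secreted ligand that Robo3 binds, was not called. It was at 35.0, 28.7 and 23.3 CPM in Cre-, 21.1, 28.4 and 28.0 CPM in tHet, and 41.0, 34.1 and 18.3 CPM in Tet tcKO, and the genotypes overlapped. Its log2 fold change was 0.04 against Cre- (95% confidence interval −0.53 to 0.61) and 0.20 against tHet (−0.37 to 0.77), with adjusted p of 0.98 and 0.80. The sign against Cre- turned without Cre- replicate 3, to −0.10, and without Tet tcKO replicates 1 or 2.

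Dcc and Ntn1, the receptor and ligand of netrin attraction, differed widely in level. Dcc was at 73.1, 78.0 and 85.1 CPM in Cre-, 76.5, 101 and 64.4 CPM in tHet, and 107, 120 and 66.9 CPM in Tet tcKO. Tet tcKO replicates 1 and 2 were the highest of all libraries and replicate 3 among the lowest. In limma the log2 fold change of Dcc was 0.28 against Cre- (−0.22 to 0.77) and 0.26 against tHet (−0.24 to 0.76), with adjusted p of 0.72 and 0.66. Ntn1 was at 1.06, 0.64 and 0.54 CPM in Cre-, 0.94, 1.66 and 0.95 CPM in tHet, and 0.77, 0.92 and 0.54 CPM in Tet tcKO, on 8 to 20 reads per library. It was the 1 relative whose Tet tcKO libraries all lay below all tHet libraries, by a narrow margin and against 9.68% of all tested genes, while they overlapped Cre-. The log2 fold change of Ntn1 was 0.01 against Cre- (−0.67 to 0.69), with the sign negative by edgeR and DESeq2, and −0.42 against tHet (−1.10 to 0.26), with adjusted p of 0.997 and 0.58. At this depth a moderate difference in Ntn1 was not detectable.

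RGCs, the retinal neurons whose axons use these cues, were represented by 8 marker genes, which summed to 1183 to 1736 CPM in Cre-, 1332 to 2924 CPM in tHet and 781 to 1237 CPM in Tet tcKO. None of the 8 was called against Cre-, where 3.60% of all tested genes were. Against tHet 1, Sncg, was called, and it was lower, where 3.00% of all tested genes were called. For a list this short such counts say little. Of the 8 log2 fold changes 6 were negative against Cre-, over a range of −1.29 to 1.49, and 5 were negative against tHet, over a range of −1.56 to 0.94. Amacrine markers summed to 993 to 1139 CPM in Cre-, 919 to 1140 CPM in tHet and 951 to 1670 CPM in Tet tcKO. Of these 6 markers 1 was called lower and 0 higher against each control, where 3.60% and 3.00% of all tested genes were called. Their log2 fold changes ran from −1.25 to 0.86 against Cre- and from −1.39 to 1.06 against tHet. The part of cell composition in the values of the guidance genes was not tested.

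None of the 5 protein-coding genes on each side of Robo3 on chromosome 9 was called. For so short a list 0 calls say little. Of the 5 protein-coding genes on each side, Tmem218, Slc37a2, Ccdc15, Hepacam and Robo4 on the lower side and Msantd2, Esam, Vsig2, Nrgn and Siae on the upper side, 0 were called against Cre- and 0 against tHet, where 3.60% and 3.00% of all tested genes were. Their log2 fold changes against Cre- ran from −1.34 to 0.92. The lowest was that of Hepacam, a glial adhesion molecule, at 3.70 ± 1.75 CPM (SD, n = 3) in Cre- and 1.23 ± 1.00 in Tet tcKO with an adjusted p of 0.054, and the highest that of Robo4. Msantd2, whose start lies 56073 bases from Robo3 on the side of the Robo3 promoter, was at 9.98 ± 3.35 CPM in Cre- and 11.5 ± 3.09 in Tet tcKO.

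**Figure D4:**
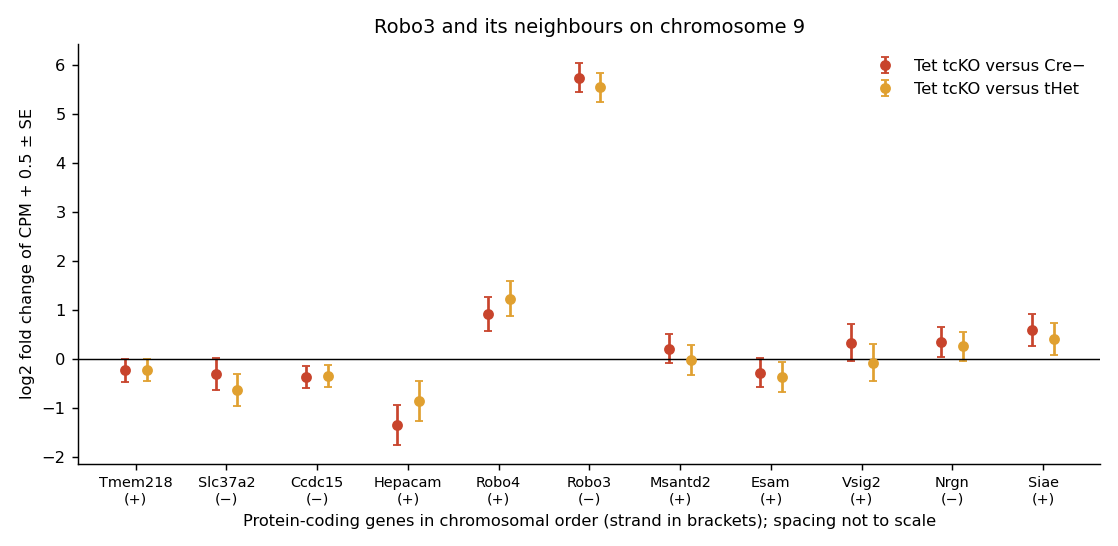
Robo3 and the 5 protein-coding genes on each side of it in chromosomal order (strand in brackets, spacing not to scale), as the log2 fold change of CPM + 0.5 with its SE from limma. Robo3 stands at 5.74 and 5.54 and all 10 neighbours between −1.34 and 1.24.

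The genes whose level followed Robo3 most closely over the 9 libraries, by Pearson's r of log2(CPM + 0.5), were Ccdc136 (r = 0.995), Ffar4 (0.995), Gm23905 (0.993), Gm11546 (0.992) and Gm35229 (0.992). The points of these correlations fall into 2 clusters, Tet tcKO and the rest, so r restates a large difference between them. Ccdc136 went from 174 ± 25.9 CPM (SD, n = 3) in Cre- and 190 ± 9.02 in tHet to 1062 ± 87.8 in Tet tcKO. Ffar4, a receptor for long-chain fatty acids, went from 0.089 and 0.050 CPM to 4.72 ± 0.71.

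Of 40 further genes of the pathway, 39 were tested. In Tet tcKO versus Cre- 1 was called higher and 0 lower, against the 3.60% of all tested genes called in either direction. In Tet tcKO versus tHet 0 were called higher and 1 lower, against 3.00%, and in tHet versus Cre- 0 were called, against 0.0422%. These counts are close to what the share of all tested genes gives for a list of this length. The call against Cre- was Zic2, a zinc finger transcription factor known for directing ipsilateral RGC axons at the chiasm. Zic2 was at 2.18 ± 0.42 CPM (SD, n = 3) for Cre-, 3.79 ± 1.14 for tHet and 10.1 ± 3.01 for Tet tcKO, and its lowest Tet tcKO library, at 6.98 CPM, was above its highest control library, at 5.07 CPM. Its log2 fold change was 1.95 ± 0.33 (SE, adjusted p 0.00055) against Cre- and 1.30 ± 0.33 (adjusted p 0.019) against tHet. Markers of the ciliary epithelium had higher sums in both Cre+ genotypes. The 5 markers, which include the related gene Zic1, summed to 41.6 to 67.0 CPM in Cre-, 171 to 260 CPM in tHet and 272 to 341 CPM in Tet tcKO. None was at 0 throughout. All 4 tested markers were called higher in Tet tcKO against Cre-, where 2.03% of all tested genes were. Against tHet 0 of 4 were called, with log2 fold changes from −0.51 to 0.94, where 3.00% of all tested genes were called. In tHet versus Cre- 2 of the 4 were called higher, where 0.0422% of all tested genes were called. The log2 fold changes of the 4 markers there ran from 1.21 to 3.91. The part of these markers in the Zic2 values was not tested. The call against tHet was Usp33, a deubiquitinase that binds Robo1, at 265 ± 43.7 CPM for Cre-, 294 ± 60.1 for tHet and 137 ± 23.0 for Tet tcKO. The highest Tet tcKO library of Usp33, at 162 CPM, was below its lowest control library, at 225 CPM. Its log2 fold change was −1.09 ± 0.23 against tHet (adjusted p 0.0049) and −0.95 ± 0.23 against Cre- (adjusted p 0.012), the latter just short of both thresholds.

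By role, the 7 other netrin receptors had a median log2 fold change of 0.29 against Cre- and 0.41 against tHet with 0 called. The 4 tested netrin family ligands had medians of −0.33 and −0.26 with 0 called. The 15 cytoplasmic effectors, which pass receptor signals to actin, stayed within −0.30 to 0.57 against Cre- and −0.25 to 0.64 against tHet, with medians of −0.02 and 0.03. The 4 midline guidance transcription factors all had positive values, with medians of 1.18 and 0.98. Of these 4, the authors used LHX2 as a marker of Müller glia, and Isl2 is among the RGC markers summed above. The 6 Müller glia markers summed to 1521 to 1927 CPM in Cre-, 1399 to 1740 CPM in tHet and 1175 to 1418 CPM in Tet tcKO. Of those 6, 1 was called higher and 2 lower against each control, where 3.60% and 3.00% of all tested genes were called. The part of those cells in the values was not tested. Over all tested genes the median was 0.00 against Cre- and −0.06 against tHet.

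**Figure D5:**
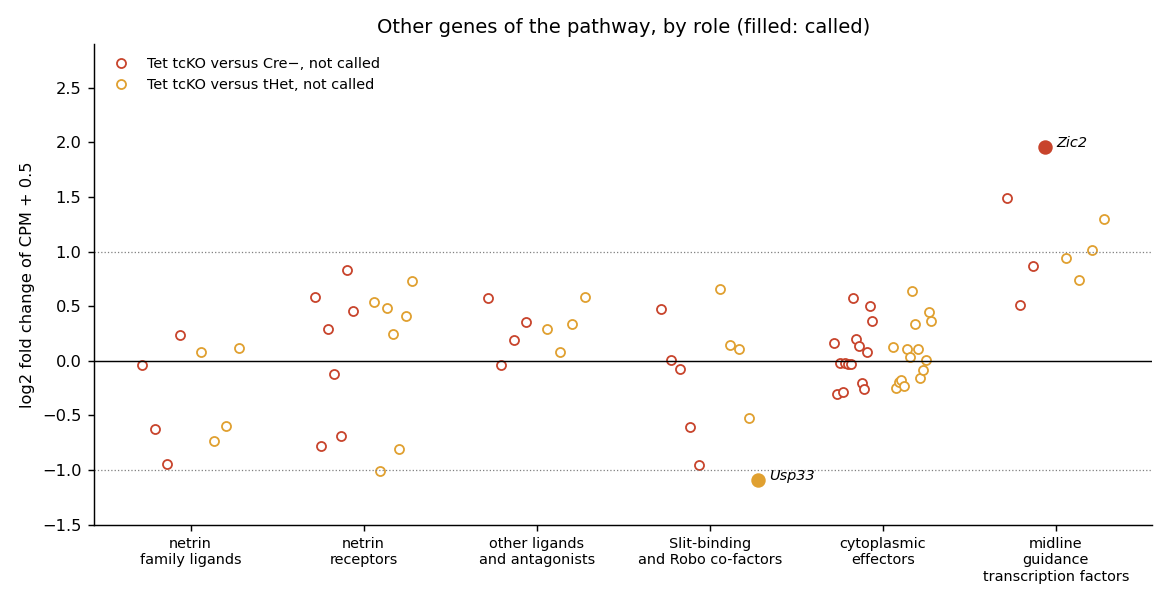
Log2 fold change of CPM + 0.5 for the 39 further pathway genes tested, grouped by role, in Tet tcKO versus Cre- (red) and versus tHet (yellow); filled and named points were called, and dotted lines mark a log2 fold change of 1 in each direction. Zic2 lies at 1.95 against Cre- and Usp33 at −1.09 against tHet.

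Other guidance families gave a frame for these counts. Of 21 tested Eph receptors and ephrins, contact-dependent cues that map RGC axons in the brain, 2 were called higher against Cre- and 3 against tHet, where 2.03% and 1.39% of all tested genes were called higher, with 0 called lower and a median log2 fold change of 0.44 and 0.48. The largest was that of the receptor gene Epha10, at 13.6 ± 1.31 CPM (SD, n = 3) for Cre-, 17.3 ± 5.53 for tHet and 80.4 ± 17.1 for Tet tcKO, with a log2 fold change of 2.50 and an adjusted p of 1.56e-06 against Cre-. Epha8 followed at 21.1 ± 1.53, 18.2 ± 3.65 and 55.7 ± 17.6 CPM, with a log2 fold change of 1.34 against Cre- and 1.57 against tHet. Efnb3 was called against tHet only, at 1.32, and had 1.10 with an adjusted p of 0.028 against Cre-. Of 30 tested semaphorins, plexins and neuropilins, 0 were called in either comparison, against the 3.60% and 3.00% of all tested genes called in either direction, with medians of 0.20 and 0.07. The difference between these families was not tested.

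Between the control genotypes the guidance genes differed little. In tHet versus Cre- the log2 fold changes of all 10 members lay between −0.35 for Slit3 and 0.43 for Ntn1, with an adjusted p of 0.9998 for each (limma, n = 3 per genotype). The intervals were widest for the low genes, from −1.16 to 0.46 for Slit3 and from −0.25 to 1.11 for Ntn1, and for the higher Dcc the interval ran from −0.49 to 0.51.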

How the data were processed

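Bulk RNA-seq of P21 mouse retina covered 3 genotypes with 3 libraries each. Groups and replicate numbers come from the labels. The authors removed ribosomal RNA, made stranded libraries from total RNA, trimmed reads with Trim Galore 0.6.7, aligned them to mm10 with STAR 2.7.0f and counted them on genes with HTSeq 0.11.2. The annotation release and the counting settings are not given in the sources used here. The authors deposited CPM, divided by the plain total of each library, beside the log2 fold changes and p-values that they obtained with edgeR 4.2.2, which were not used. Dividing by the value of 1 read gave whole numbers for 100% of positive CPM (tolerance 0.01 reads), so reads per gene could be recovered. No libraries were identical.

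A gene was tested if 3 or more of the 9 libraries reached 0.5 CPM. The test was limma 3.58.1 (R 4.3.3) on log2(CPM + 0.5), by lmFit and eBayes with trend, all 9 libraries in a single fit, 1 mean per genotype and Benjamini-Hochberg adjustment over all tested genes. Levels per kilobase used the exon length of GENCODE release M21, matched without version suffix for 55227 of the identifiers. The members and all gene lists were chosen with earlier results of these data known. Named were all 10 members, further pathway genes called in any comparison, and at most 3 called genes of each comparison family. The 5 genes most like Robo3, its 5 protein-coding neighbours on each side and markers were also named. CT010467.1 and Sncg were named after their values were seen, and Lhx2 and Isl2 for the cell types they mark. Alternatives were other pseudocounts (0.1 and 1), filters, scalings (TMM, upper quartile, totals without CT010467.1), edgeR 4.0.16 and DESeq2 1.42.0 on recovered reads, a replicate block, only the 6 libraries compared, leaving out each library, an adjusted p under 0.05 and no fold threshold. The tests were tested on simulated data. Single exons, DNA methylation and single nuclei were not analysed here. Figures were drawn with matplotlib 3.10.9.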

Additional observations from a re-analysis of the deposited data

How the results depend on the processing

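Robo3 kept its direction in Tet tcKO under all 20 alternatives, with log2 fold changes of 5.45 to 6.07 against Cre- and 5.29 to 5.86 against tHet. The number of its relatives called against Cre- fell from 1 to 0 with a pseudocount of 0.1 and with no filter on low values, and against tHet to 0 with no filter. It was 2 against tHet with DESeq2 on recovered reads, with the replicate block and at an adjusted p under 0.05. Leaving out 1 library at a time gave 0 to 1 relatives against Cre- and 0 to 1 against tHet. Further pathway genes called against Cre- numbered 2 without CT010467.1 in the totals, with DESeq2, with the replicate block, with only the 6 libraries compared and at an adjusted p under 0.05, and 1 to 2 when a library was left out. Against tHet they numbered 0 with no filter, 2 with upper-quartile scaling and without CT010467.1, 3 with DESeq2, 4 with the replicate block, with only the 6 libraries and at an adjusted p under 0.05, and 0 to 4 when a library was left out. Causes were not tested. Without CT010467.1 the median of all genes against Cre- was 0.14.

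Values near 0 changed sign. Ntn1 against Cre- was −0.0445 by edgeR and −0.0551 by DESeq2, and −0.11 to 0.18 when a library was left out. In tHet versus Cre- Robo2 was −0.0498 with TMM, −0.0387 by edgeR and −0.0418 by DESeq2, and Dcc was −0.0455, −0.0433 and −0.0464. When a library was left out, the ranges were −0.0087 to 0.46 for Robo2 and −0.19 to 0.38 for Nell2 against Cre-, −0.0172 to 0.45 for Robo2 and −0.0325 to 0.54 for Nell2 against tHet, and, in tHet versus Cre-, −0.0585 to 0.20 for Robo1, −0.0905 to 0.17 for Robo2, −0.16 to 0.31 for Slit1, −0.29 to 0.0719 for Slit2 and −0.16 to 0.16 for Dcc.

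Of all tested genes, edgeR's quasi-likelihood test called 744 in Tet tcKO versus Cre-, 609 versus tHet and 1 in tHet versus Cre-, where limma called 768, 640 and 9. DESeq2 called 1145, 1046 and 40, the replicate block 1127, 1125 and 40, and no filter 417, 351 and 1. Same-numbered libraries come from different animals. Their deviations from the genotype means correlated at −0.35 to 0.56 over 9 pairs, with a mean of 0.111 against −0.0515 for other numbers. Whether the same number marks a shared batch is not given in the sources used here, and so few correlations cannot decide it. Depth limits Robo4, Slit3 and Ntn1, which rest on 5 to 20 reads per control library.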

Other observations

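Gm23905 and Gm11546, which followed Robo3 over the 9 libraries, were listed at 0 reads in all 6 control libraries and at 2.46 ± 0.43 and 0.72 ± 0.11 CPM (SD, n = 3) in Tet tcKO. For Gm35229 the mean was 0.26 ± 0.080 CPM in Cre- retinas, 0.29 ± 0.20 in tHet retinas, and 9.21 ± 1.67 in the mutant. No explanation was tested.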
